A study of Mus musculus with 4 samples.

Results

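The proteins described here are those of the cytosolic ribosome, the particle that translates nuclear-encoded mRNA. Members were the probe sets annotated to exactly 1 gene with a cytosolic ribosomal protein symbol, that is Rps or Rpl with a number and an optional a, a1 or x, or Rplp0, Rplp2 and Rpsa. S6 kinases, ribosomal protein-like genes and pseudogenes were left out. This gave 95 probe sets of 43 genes, 21 of the small and 22 of the large subunit, of 34945 probe sets for 18193 genes on the array. Probe sets whose names end in _x_at or _s_at, which hold probes that also match other transcripts, are given apart: 41 of the 95, from 20 genes, were of this kind. The other 54, from 38 genes, are called gene-specific below, and 5 genes (Rpl37, Rpl38, Rps2, Rps14 and Rps29) had _x_at or _s_at probe sets alone.

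The study hybridised total RNA of 4 C57BL6 mouse samples to Affymetrix arrays, 1 array per group. The mixed lineage leukemia arose from haematopoietic stem or precursor cells given both AF4-MLL and MLL-AF4 by transduction, the reciprocal products of a chromosome translocation found in infant leukemia. The other leukemias arose from cells that received AF4-MLL alone: proB ALL, an acute lymphoblastic leukemia, and B/T BAL, a biphenotypic one with B and T features. Leukemic marrow was taken from moribund mice after several months and typed by flow cytometry without sorting, so host cells could remain, and the comparator was normal bone marrow with no fusion. With 1 array a group, immunophenotype, fusion and animal cannot be told apart.

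Ribosomal proteins assemble with ribosomal RNA in the nucleolus, and each is needed in a fixed ratio to the rest. Their mRNAs usually start with a C followed by a run of pyrimidines, the 5′ terminal oligopyrimidine (TOP) motif, through which mTOR signalling and Larp1 control their translation. In marrow they are known for Diamond-Blackfan anaemia, in which the loss of 1 gene copy impairs red cell production, and unassembled Rpl5 and Rpl11 bind Mdm2 and so raise p53.

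Start sites were available for 38 of the 43 genes, in 44 promoters. The 7 windows below belong to genes at the ends of the comparisons that follow, and each runs from 60 bases before the RefSeq start to 15 bases from it (build GRCm38.p6, 5′ to 3′ on the gene's strand). Capitals mark TCTCGCGA, CCGGAAG or their reverse complements, and a pyrimidine run that begins at the start. Rpl12, Rpl14, Rps10 and Rps6 had a gene-specific probe set that was lower in mixed lineage leukemia than in both other leukemias. Gene-specific probe sets of Rpl41 and Rpl11 were among the highest over the leukemias, and Rps25 stood highest in proB ALL.
Rpl12 (chr2:32961652-32961726, plus strand): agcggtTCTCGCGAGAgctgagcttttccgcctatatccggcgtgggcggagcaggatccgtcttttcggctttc
Rpl14 (chr9:120571457-120571531, plus strand): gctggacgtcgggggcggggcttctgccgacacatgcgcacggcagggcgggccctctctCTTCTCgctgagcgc
Rps10 (chr17:27635230-27635304, minus strand): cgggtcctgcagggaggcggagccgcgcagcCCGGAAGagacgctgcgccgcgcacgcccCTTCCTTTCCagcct
Rps6 (chr4:86857353-86857427, minus strand): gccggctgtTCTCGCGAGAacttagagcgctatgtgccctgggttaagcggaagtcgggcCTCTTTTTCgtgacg
Rpl41 (chr10:128549154-128549228, minus strand): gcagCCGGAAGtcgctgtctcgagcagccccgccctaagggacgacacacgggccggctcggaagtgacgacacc
Rpl11 (chr4:136053379-136053453, minus strand): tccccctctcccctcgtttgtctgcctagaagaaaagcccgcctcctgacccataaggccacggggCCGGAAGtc
Rps25 (chr9:44407654-44407728, plus strand): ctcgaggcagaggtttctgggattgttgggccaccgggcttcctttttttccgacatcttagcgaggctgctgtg

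Over the whole promoter window (250 bases before to 50 from the start), the letters CCGGAAG, the core bound by ETS factors, were found on either strand in 19 of the 44 promoters (43.2%) against 8.86% of 32851 promoters in the same RefSeq table. TCTCGCGA was found in 10 (22.7%) against 0.995%. GGGCGG, the core bound by Sp1, was found in 24 (54.5%) against 35.7%, and ATGGCGG, the core bound by YY1, in 5 (11.4%) against 4.05%. CACGTG was found in 5 (11.4%) against 7.15%, CCAAT in 13 (29.5%) against 37.4%, and TATAAA in 5 (11.4%) against 13.6%. A C at the annotated start followed by at least 4 pyrimidines was found in 8 (18.2%) against 2.51%, those of Rpl14, Rpl35, Rpl38, Rplp2, Rps6, Rps10, Rps18 and Rps27. Thus the genes shown above included starts with the run (Rpl14, Rps10, Rps6) and without it at the annotated start (Rpl12, Rpl41, Rpl11, Rps25). The motifs were chosen with the data known, and a match describes the letters alone.

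Signals were compared as log2(signal + 51.5), and a signal above 189, the median of all signals, counted as measured. Where 4 signals are listed below without naming the arrays, they are those of mixed lineage leukemia, then proB ALL, then B/T BAL and last normal marrow. On at least 1 array, 49 of the 54 gene-specific probe sets (37 genes) passed this floor, and 42 passed it on all 4 arrays. The 5 that did not were 1 probe set each of Rps3, Rps16, Rps18, Rps24 and Rpsa. The arrays shared a trimmed mean of 1000 but differed at both ends of their range. Mixed lineage leukemia and B/T BAL reached highest signals of 117723 and 129760, and proB ALL and normal marrow 65527 and 71928. The 2nd percentile was 20.4 in mixed lineage leukemia and 2.88 to 3.97 on the other arrays, and 57.4% of its probe sets passed the floor against 46.4% to 49.0%. The 3′ to 5′ signal ratio of the Actb controls was 3.10 for mixed lineage leukemia, 2.47 for proB ALL, 4.72 for B/T BAL and 1.87 for normal marrow. That of the Gapdh controls was 1.24, 1.28, 1.14 and 0.944 on the same arrays, with B/T BAL the lowest of the leukemias.

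Marker genes were read as a guide to the cell content of the arrays, and part of the lists is given here. The summed signal of 12 erythroid genes was 273370 in normal marrow and 10782 to 18865 in the leukemias. For 3 eosinophil genes it was 81186 in normal marrow and 301 to 2411 in the leukemias. For 6 genes of dividing cells it was 93951 for mixed lineage leukemia, 77076 for proB ALL, 105741 for B/T BAL and 124753 for normal marrow. The sum of 8 late neutrophil genes was 513991 for mixed lineage leukemia, 83239 for proB ALL, 307536 for B/T BAL and 312779 for normal marrow. That of 12 T cell genes was 203084 in B/T BAL, with all 12 above the floor, and 2855 to 53885 elsewhere. The summed signal of 8 stroma genes was also highest in B/T BAL, at 76386 against 3760 to 9246, most of it from Col1a2 (38649) and Pdgfrb (30356). Of 12 early B-cell genes, 4 passed the floor in the library labelled proB ALL, in which Pax5, Ebf1, Vpreb1, Vpreb3, Igll1, Rag1, Rag2 and Dntt were below it, while all 9 natural killer and cytotoxic genes passed. Pax5, Ebf1 and Vpreb1 were below the floor in the other leukemias too, and Pax5 and Rag2 in normal marrow. In these bulk samples, fewer cells of a type and less RNA per cell cannot be told apart, and the part of cell content in the values that follow was not tested.

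The question behind the first comparison was how the leukemias differ from normal marrow. By their median deposited signals, the gene-specific ribosomal protein probe sets were highest in B/T BAL, and the order of mixed lineage leukemia and proB ALL depended on the scaling and on how bright the probe sets were. Against normal marrow the 49 had a median log2 difference of 1.07 in B/T BAL, where 29 were higher by at least 2-fold and 0 lower by as much. In mixed lineage leukemia the median was 0.51, with 5 higher and 6 lower. In proB ALL it was 0.19, with 11 higher and 0 lower. After quantile normalization, which gives every array the same distribution, the medians were 0.31 in B/T BAL, 0.03 in mixed lineage leukemia and 0.23 in proB ALL, with 10, 2 and 9 higher, so proB ALL then stood above mixed lineage leukemia. Of all 22022 gene-specific probe sets, 16.1% were at least 2-fold higher and 16.9% lower in B/T BAL, 21.4% and 15.2% in mixed lineage leukemia, and 13.6% and 17.7% in proB ALL, with medians of 0.05, 0.14 and -0.09. After quantile normalization 3177, 3815 and 2884 of the 22022 were higher in the same order, with medians of 0.01, 0.06 and -0.07. No member passed limma's test of the 3 leukemias against normal marrow at an adjusted p of 0.05. Over all 25152 probe sets tested, 0% were called higher and 0.0716% lower. With the _x_at and _s_at probe sets included, the largest limma difference among the members was 2.76 (log2), for Rpl37.

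The members differed by signal level. A mean signal of 20000, a limit set after the values were seen, left 30 bright probe sets of 26 genes and 19 dimmer ones of 16 genes. The nearest probe sets on either side were 1 of Rpl13a, with a mean of 16240, and 1 of Rpl27, with a mean of 23232. The bright ones had almost the same profile, and the dimmer ones did not share it.

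**Figure D1:**
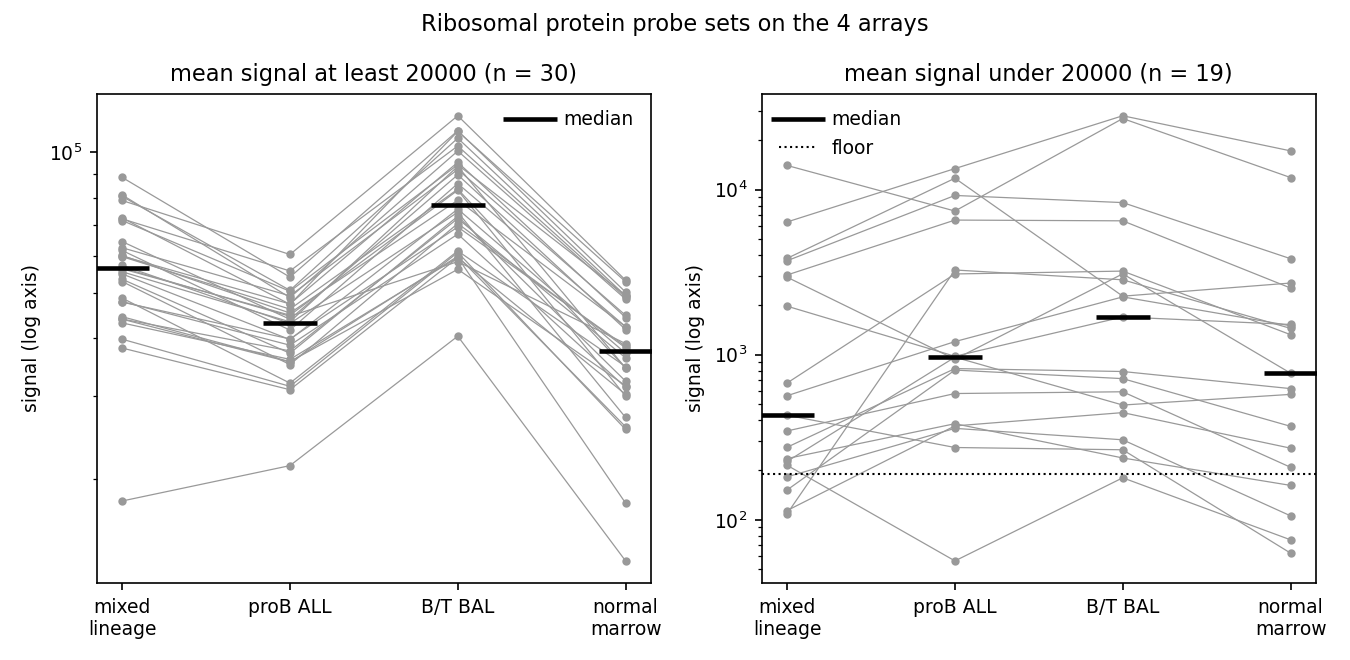
Signal (log axis) of each gene-specific ribosomal protein probe set on the 4 arrays, as 1 grey line per probe set, for 30 with a mean signal of at least 20000 (left) and 19 under it (right). Black bars are medians and the dotted line is the floor of 189. On the left all 30 lines peak in B/T BAL, and on the right the lines cross.

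All 30 bright probe sets had their highest signal in B/T BAL. Their signals ran from 40377 to 119779 there, with a median of 77279. In mixed lineage leukemia they ran from 17906 to 88377 with a median of 56433, in proB ALL from 21320 to 60418 with a median of 43157, and in normal marrow from 13324 to 53226 with a median of 37618. Normal marrow was lowest for 26 and proB ALL for 4, against 58 and 77 of the 205 other probe sets this bright. In 29 of 30, mixed lineage leukemia and B/T BAL were both above proB ALL and normal marrow. Of all 235 gene-specific probe sets this bright, 52.3% were highest in B/T BAL and 38.3% had that order.

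Their log2 differences from normal marrow were narrowly spread. In B/T BAL they ran from 0.58 to 1.74 with a median of 1.08, and 21 of 30 were at least 2-fold higher, against 22.1% of all 235. In mixed lineage leukemia they ran from 0.28 to 1.28 with a median of 0.56, and in proB ALL from -0.16 to 1.02 with a median of 0.12. The 205 other bright probe sets had medians of 0.37 in B/T BAL, 0.45 in mixed lineage leukemia and -0.02 in proB ALL. The bright small-subunit genes (14 probe sets) had medians of 1.11 in B/T BAL, 0.67 in mixed lineage leukemia and 0.19 in proB ALL, and the 16 of the large subunit 1.03, 0.50 and 0.10 in the same order.

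This block moved with the upper end of the arrays. The signal that the brightest 0.5% of probe sets exceeded was 55296 for B/T BAL, 47119 for mixed lineage leukemia, 33754 for normal marrow and 32581 for proB ALL. After quantile normalization the medians of the 30 were 0.11 in B/T BAL, 0.03 in mixed lineage leukemia and 0.13 in proB ALL. Of the 30, 2 were then at least 2-fold higher in B/T BAL, against 9 of all 235 this bright. The share of the summed signal held by all 95 members was 6.97% for B/T BAL, 5.05% for mixed lineage leukemia, 3.85% for normal marrow and 4.19% for proB ALL as deposited, and 5.47%, 4.77%, 4.76% and 5.19% after quantile normalization. By rank, which scaling leaves as it is, 29 members were among the 100 brightest probe sets in B/T BAL, 28 in proB ALL, 24 in normal marrow and 20 in mixed lineage leukemia. By this count proB ALL stood above mixed lineage leukemia, the reverse of the order by signal. The part of the arrays' upper range in the bright block was not tested.

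**Figure D2:**
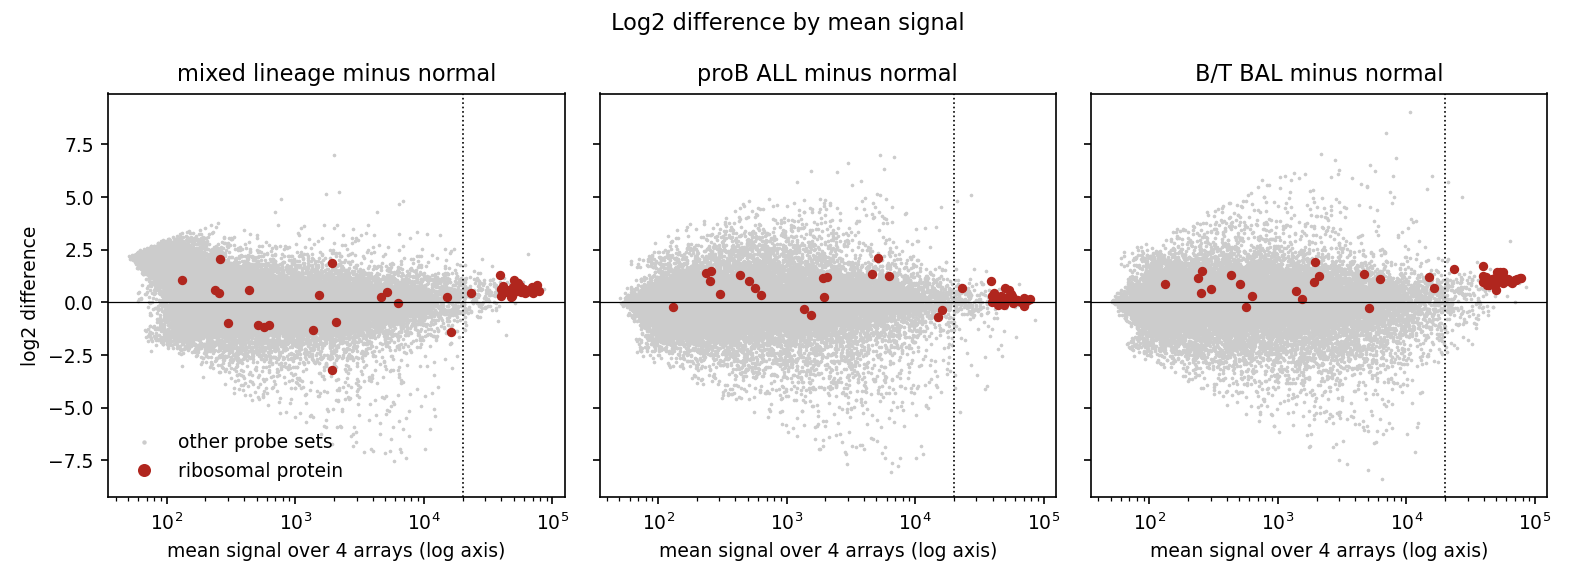
Log2 difference from normal marrow of each gene-specific probe set against its mean signal over the 4 arrays (log axis), for ribosomal proteins (red) and all others (grey), in 3 panels for the 3 leukemias. Right of the dotted line at 20000 the red points form a tight cluster, with medians of 0.56, 0.12 and 1.08, and left of it they spread over both sides of 0 in mixed lineage leukemia.

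**Figure D3:**
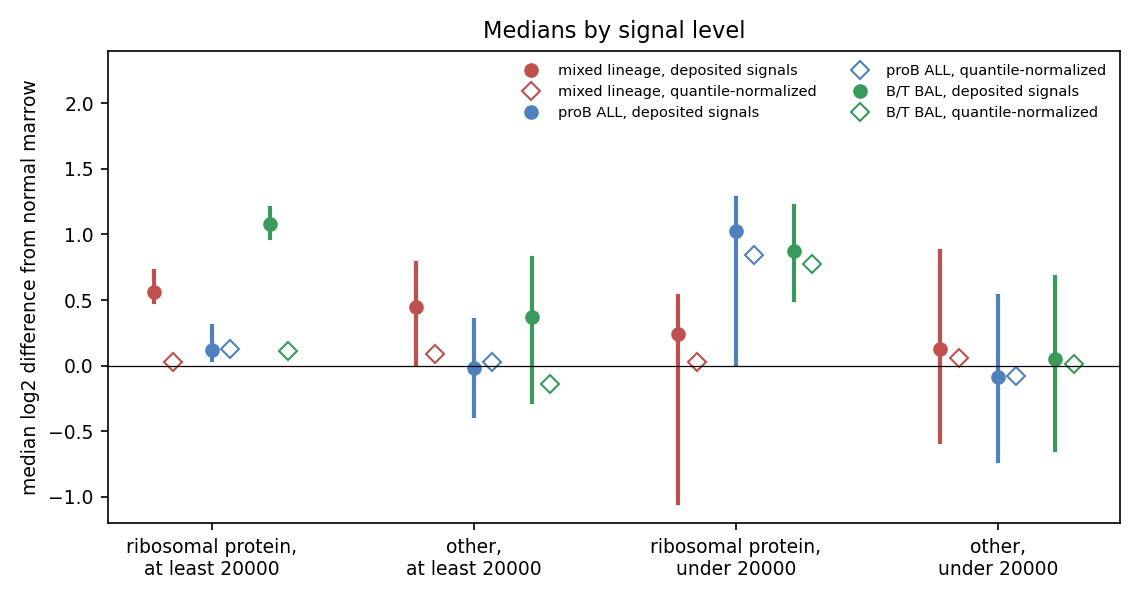
Median log2 difference from normal marrow for ribosomal protein and other gene-specific probe sets, split at a mean signal of 20000. Filled points are deposited signals with bars over the middle 50% of probe sets, and open diamonds are medians after quantile normalization, which takes the bright ribosomal protein median in B/T BAL from 1.08 to 0.11 and the dimmer one in proB ALL from 1.02 to 0.84.

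Among bright small-subunit members, Rps19, the gene most often mutated in Diamond-Blackfan anaemia, had signals of 47903 for mixed lineage leukemia, 38617 for proB ALL, 66807 for B/T BAL and 31369 for normal marrow. Rps15, a protein of the small subunit's head, had 56300, 44778, 82951 and 30045 on the same arrays. Rps3, which lines the mRNA entry channel, had 59777, 46147, 83374 and 34521 on its bright probe set. All 3 leukemias were above normal marrow for each of these genes. Rps15 was 2.76-fold higher in B/T BAL than in normal marrow, and limma's difference over the leukemias was 0.98 ± 0.53 (SE, log2; adjusted p = 0.999992). Rpsa, a small-subunit protein also known as the laminin receptor precursor, had 72039, 55698, 103195 and 48870. Rps4x had 64393, 43884, 89511 and 41723. For Rps4x, proB ALL lay close to normal marrow, with a log2 difference of 0.07.

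Of the large subunit, Rpl11, which binds Mdm2 when not assembled, was the bright gene-specific member that differed most from normal marrow. Its signal was 43105 for mixed lineage leukemia, 36006 for proB ALL, 59518 for B/T BAL and 17721 for normal marrow, so all 3 leukemias were above it, by 2.43-fold, 2.03-fold and 3.36-fold. The limma difference was 1.35 ± 0.53 (SE, log2; unadjusted p = 0.0327, adjusted p = 0.999992). Rpl22, known for its part in the development of T cells, had 39778, 31528, 61042 and 25484. Rpl10a had 55477, 43329, 93328 and 34495, and B/T BAL was 2.15-fold above proB ALL. At the stalk, which recruits elongation factors, Rplp0 had 72361, 47255, 110895 and 52813, and Rplp2 had 88377, 54031, 111256 and 50190. Rplp0 was the bright gene-specific member furthest apart between B/T BAL and proB ALL, at 2.35-fold. Its proB ALL signal was below that of normal marrow.

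The 19 dimmer probe sets did not follow that order. The highest array was proB ALL for 9, B/T BAL for 7, mixed lineage leukemia for 3 and normal marrow for 0, against 4238, 5606, 7750 and 4174 of the 21768 other dimmer probe sets. The lowest was mixed lineage leukemia for 9, normal marrow for 6, proB ALL for 3 and B/T BAL for 1, against 5749, 4648, 6192 and 5179 of the others. Their median log2 difference from normal marrow was 1.02 in proB ALL (10 at least 2-fold higher), 0.87 in B/T BAL (8 higher) and 0.24 in mixed lineage leukemia (3 higher and 6 lower). In the same order, the 21768 other dimmer probe sets had medians of -0.09, 0.05 and 0.13. At least 2-fold higher were 13.6%, 16.0% and 21.5% of them, and 15.3% were lower in mixed lineage leukemia. After quantile normalization the members' medians were 0.84, 0.78 and 0.03 in the same order. ProB ALL and B/T BAL were both above mixed lineage leukemia and normal marrow for 10 of the 19, against 19.9% of all 21787 probe sets this dim.

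**Figure D4:**
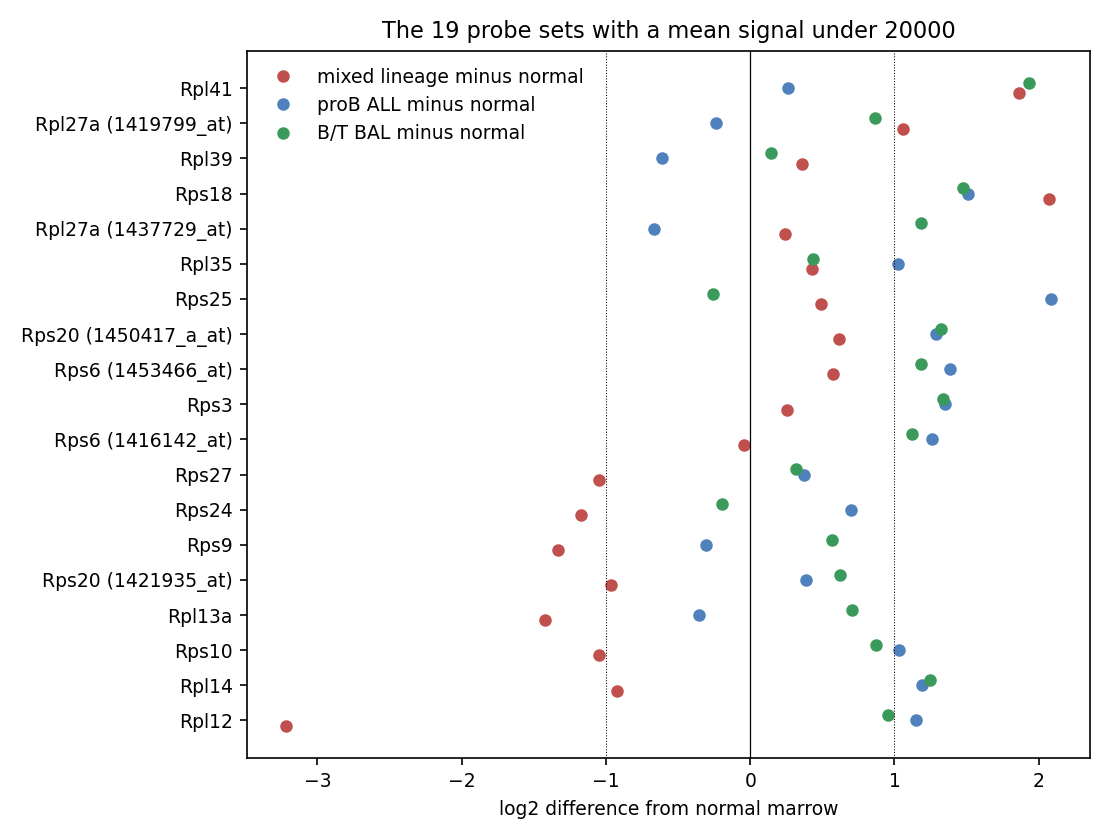
Log2 difference from normal marrow in mixed lineage leukemia (red), proB ALL (blue) and B/T BAL (green) for the 19 dimmer probe sets, ordered by mixed lineage leukemia minus the mean of the other leukemias, with dotted lines at 2-fold. Red points lie left of both other colours for 13 of the 19, Rpl12 being furthest at -3.22. The same count over all probe sets this dim was not made.

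Rpl12, a large-subunit protein at the base of the stalk, differed most. Its only member probe set was a dim one, so no bright probe set could be read beside it. Its signal there was 109 for mixed lineage leukemia, below the floor, and 3259 for proB ALL, 2843 for B/T BAL and 1443 for normal marrow. Mixed lineage leukemia was therefore at least 7.63-fold under normal marrow and at least 15.03-fold under the lower of the other leukemias. Rpl14, another large-subunit protein whose only member probe set was dim, had 674, 3084, 3210 and 1322 on the same arrays. Mixed lineage leukemia was lowest and 4.58-fold under proB ALL. Rpl13a, which is also part of a complex that silences translation of inflammatory mRNAs, had 6370, 13408, 28013 and 17167 on its dimmer probe set. Only B/T BAL was above normal marrow there.

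Some dimmer small-subunit probe sets repeated the low mixed lineage signal. A probe set of Rps10, a protein ubiquitinated on stalled ribosomes, had 152 for mixed lineage leukemia, below the floor, 807 for proB ALL, 716 for B/T BAL and 368 for normal marrow. A probe set of Rps24, another Diamond-Blackfan gene, had 226, 966, 495 and 575. Rps27 had 275, 824, 791 and 623. Mixed lineage leukemia was lowest for all 3. Rps9, known for its part in decoding accuracy, had 564, 1201, 2240 and 1497, and a probe set of Rps20 had 114, 370, 446 and 272. Mixed lineage leukemia was again lowest, and below the floor for Rps20. Rps24 and Rps20 also had _x_at probe sets. Mixed lineage leukemia was lowest for 2 of the 35 _x_at or _s_at members with a mean signal of at least 20000. These were of Rps10 and Rpl13a.

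On dimmer probe sets of Rps6 and Rps3, proB ALL and B/T BAL again stood above both other arrays, as for Rpl12, Rpl14 and Rps10. Here, however, mixed lineage leukemia lay close to normal marrow or above it. Rps6, the substrate of the S6 kinases downstream of mTOR, had 3709 for mixed lineage leukemia, 9217 for proB ALL, 8345 for B/T BAL and 3815 for normal marrow on 1 probe set. A dim Rps6 probe set had 182, 358, 305 and 106, with mixed lineage leukemia and normal marrow below the floor. Their mixed lineage differences from normal marrow were -0.04 and 0.57 on the log2 scale. Rps3 had 3041, 6538, 6470 and 2534 on its dimmer probe set. The other Rps20 probe set had 345, 582, 596 and 208. On its brighter probe set Rps6 was 2.42-fold higher in proB ALL and 2.19-fold higher in B/T BAL than in normal marrow, and Rps3 2.58-fold and 2.55-fold.

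Other dimmer members were set apart on single arrays. Rps25, which some viral mRNAs need for internal initiation, had 3834 for mixed lineage leukemia, 11723 for proB ALL, 2262 for B/T BAL and 2717 for normal marrow. It was highest in proB ALL, 4.31-fold above normal marrow and 5.18-fold above B/T BAL, and it was the 1 member at least 2-fold lower in B/T BAL than in proB ALL. Rpl41, one of the smallest ribosomal proteins, had 2947, 938, 3089 and 773, so mixed lineage leukemia and B/T BAL stood together above proB ALL and normal marrow. Rpl41 was 3.81-fold higher in mixed lineage leukemia and 3.996-fold higher in B/T BAL than in normal marrow. A dim probe set of Rps18 had 430, 274, 266 and 62.8, the last below the floor, so the mixed lineage signal was at least 2.27-fold higher. Rpl39, a protein of the exit tunnel, had 1967, 978, 1693 and 1524. Rpl27a had 14004, 7417, 26952 and 11832 on its brighter probe set, lowest in proB ALL and 3.63-fold above it in B/T BAL.

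For 5 genes both a bright and a dimmer gene-specific probe set were measured, and these often gave different values. The 3 bright Rps10 probe sets had mixed lineage differences from normal marrow of 0.71, 0.72 and 1.08 on the log2 scale, and the dimmer one -1.05. Rps10 was the 1 gene whose gene-specific probe sets lay at least 2-fold on opposite sides of normal marrow. For Rpl13a the mixed lineage values were 0.33 (bright) and -1.42 (dimmer), for Rps3 0.79 and 0.26, for Rps18 0.31 and 2.07, and for Rpl35 0.56 and 0.43. In proB ALL the Rps3 values were 0.42 and 1.35, and those of Rpl35 0.10 and 1.02. For these genes the difference from normal marrow depended on the probe set read.

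Between the leukemias with AF4-MLL alone, B/T BAL against proB ALL had a median log2 difference of 0.89 over the 49 probe sets, with 13 at least 2-fold higher and 1 lower, against 14.9% and 11.7% of all gene-specific probe sets. The bright members' median was 0.93 and that of the dimmer members -0.02. Mixed lineage leukemia against the mean of both others had a median of -0.10, with 0 higher and 10 lower by at least 2-fold, against 26% and 16.7% of all. All 10 were dimmer probe sets, and the median of the 19 was -1.08.

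The contrast of both fusions with AF4-MLL alone had 1 residual degree of freedom in limma, that of proB ALL against B/T BAL. It called 0% of the 25152 probe sets higher and 0% lower. The gene-specific members with the lowest differences were Rpl12 at -4.27 ± 0.60 (SE, log2), Rpl14 at -2.14 ± 0.53 and the dimmer Rps10 probe set at -2.00 ± 0.71. Among the _x_at and _s_at members the lowest difference was -3.34.

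The _x_at and _s_at probe sets, 40 of 41 of which passed the floor, followed the bright gene-specific ones. Their median log2 difference from normal marrow was 1.08 in B/T BAL (26 at least 2-fold higher, 0 lower), 0.58 in mixed lineage leukemia (2 higher, 2 lower) and 0.06 in proB ALL (3 higher, 0 lower). After quantile normalization the medians were 0.13, -0.03 and 0.04 in the same order, with 4, 2 and 3 higher, against 511, 478 and 379 of all 3130 such probe sets. The shares that follow are from the deposited signals. Of all 3130 such probe sets, 18.4% were higher and 15.6% lower in B/T BAL, 17.3% and 16.1% in mixed lineage leukemia, and 11.8% and 17.2% in proB ALL. Of the 35 with a mean signal of at least 20000, 34 were highest in B/T BAL, a share not counted over all _x_at or _s_at probe sets this bright. Rps14, whose loss underlies the anaemia of a human myelodysplastic syndrome, had 69888 for mixed lineage leukemia, 42927 for proB ALL, 101859 for B/T BAL and 41078 for normal marrow on 1 such probe set. Rpl38, known for its part in patterning of the skeleton, had 87885, 58947, 126508 and 59434. Both had the order of the bright block.

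A few of them did not follow it. Rpl37 had 5319 for mixed lineage leukemia, 8416 for proB ALL, 17176 for B/T BAL and 1307 for normal marrow, so every leukemia was above normal marrow, with log2 differences of 1.98, 2.64 and 3.66. A dimmer _x_at probe set of Rpl41 had 3609, 2154, 6255 and 816, also above normal marrow in every leukemia. A brighter _x_at probe set of Rpl41 had 40101, 20326, 36807 and 20577, so there proB ALL was not above normal marrow. An _x_at probe set of Rps10 had 5259, 38865, 73933 and 10494, lowest in mixed lineage leukemia as on the dimmer gene-specific probe set and unlike the 3 bright ones. An _s_at probe set of Rpl22 had 1436, 2970, 4087 and 4123, highest in normal marrow, while the other Rpl22 probe set of this kind had 60451, 45690, 100199 and 46059. What else these probe sets detect was not tested.

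Genes that make, regulate or resemble the ribosome were read with 1 gene-specific probe set each. Over 13639 genes read this way, 18.9% were at least 2-fold higher and 15.4% lower in mixed lineage leukemia, 11.2% and 19% in proB ALL, and 15.2% and 17.8% in B/T BAL, with medians of 0.07, -0.12 and 0.04. Limma called 0 genes of the lists below between the leukemias and normal marrow, and at an unadjusted p under 0.05 it counted 0 higher and 1 lower (Rps4l). Translation factors and other TOP mRNAs (25 of 31 genes measured) had median log2 differences from normal marrow of -0.07 (0 at least 2-fold higher, 2 lower) in mixed lineage leukemia, 0.36 (0 and 0) in proB ALL and 0.72 (6 and 0) in B/T BAL, the order used for the lists that follow. After quantile normalization these medians were -0.34, 0.51 and 0.38, with proB ALL above B/T BAL, and 14 of the 25 genes were read with a probe set of at least 20000 in mean signal. Eef1b2, an exchange factor for the elongation factor that delivers tRNA, had 26770, 25567, 53677 and 19706, highest in B/T BAL. Eef1d, a subunit of the same exchange complex, had 9363, 21984, 28969 and 22411, lowest in mixed lineage leukemia.

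Chaperones of ribosomal proteins and other assembly factors (8 genes) had a median of -0.73 in mixed lineage leukemia (0 higher, 3 lower). It was 0.83 in proB ALL (2 higher, 0 lower) and 0.91 in B/T BAL (4 higher, 0 lower). Heatr3, which brings Rpl5 and Rpl11 to the nucleus, had 231, 3216, 2440 and 1606 on the 4 arrays in the same order. Pdcd2, a chaperone of Rps2, had 868, 3271, 4584 and 1422. Both were lowest in mixed lineage leukemia, as 9 of the 19 dimmer ribosomal protein probe sets were. Pdcd2l, with 758, 1422, 1635 and 1339, was also lowest there. Nol7 was not, with 10088, 15189, 19182 and 9262. Mitochondrial ribosomal proteins (73 genes), which form the separate ribosome of that organelle, had medians of -0.24 (1 higher, 9 lower), 0.41 (4 higher, 2 lower) and 0.49 (9 higher, 0 lower). Mrps9 had 4181, 6224, 5381 and 2195, above normal marrow in all 3 leukemias, and Mrpl34 had 2448, 3482, 4840 and 5622, below it in all 3.

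TOP mRNA regulators (13 of 15 genes) had medians of -0.26 (0 higher, 1 lower), -0.36 (3 higher, 3 lower) and 0.34 (2 higher, 1 lower). Eif4ebp1, an inhibitor of cap-dependent initiation that mTOR inactivates, had 3291, 1219, 1169 and 3959, lower in proB ALL and B/T BAL than on the other arrays. Tia1, which binds TOP mRNAs under stress, had 2010, 5233, 4459 and 1440. Genes of the p53 pathway (8 of 10) had medians of 0.08 (1 higher, 2 lower), -0.11 (2 higher, 1 lower) and 0.03 (1 higher, 0 lower), and that of mixed lineage leukemia was -0.02 after quantile normalization. Zmat3, a p53 target, had 138, 1549, 927 and 323, below the floor in mixed lineage leukemia. Ccng1 had 5772, 9472, 4806 and 4600, lowest in normal marrow. Sesn2 had 218, 294, 354 and 740, highest in normal marrow, and Cdkn1a had 1026, 463, 651 and 927.

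Paralogs left out by the rule were measured for 6 of 9 genes and had medians of -0.15 (0 higher, 1 lower), -0.11 (0 higher, 2 lower) and 0.50 (2 higher, 1 lower), and of -0.33, -0.05 and 0.23 after quantile normalization. Rps4l had 66.1, 11.8 and 23.3 in the leukemias, all below the floor, and 668 in normal marrow. Rpl3l, the muscle paralog of Rpl3, had 1416 in B/T BAL and 40.6, 9.30 and 86.7, below the floor, on the other arrays. Rpl22l1, the paralog of Rpl22, had 18119, 23422, 45668 and 19590, highest in B/T BAL as Rpl22 was on its gene-specific probe set. Rps27l, a p53 target, had 22528, 34344, 36062 and 22516, with proB ALL and B/T BAL above the rest. Of the ubiquitin fusion genes, Fau, which carries Rps30, had 71805, 43532, 70284 and 33841, with mixed lineage leukemia and B/T BAL close together and above the rest.

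**Figure D5:**
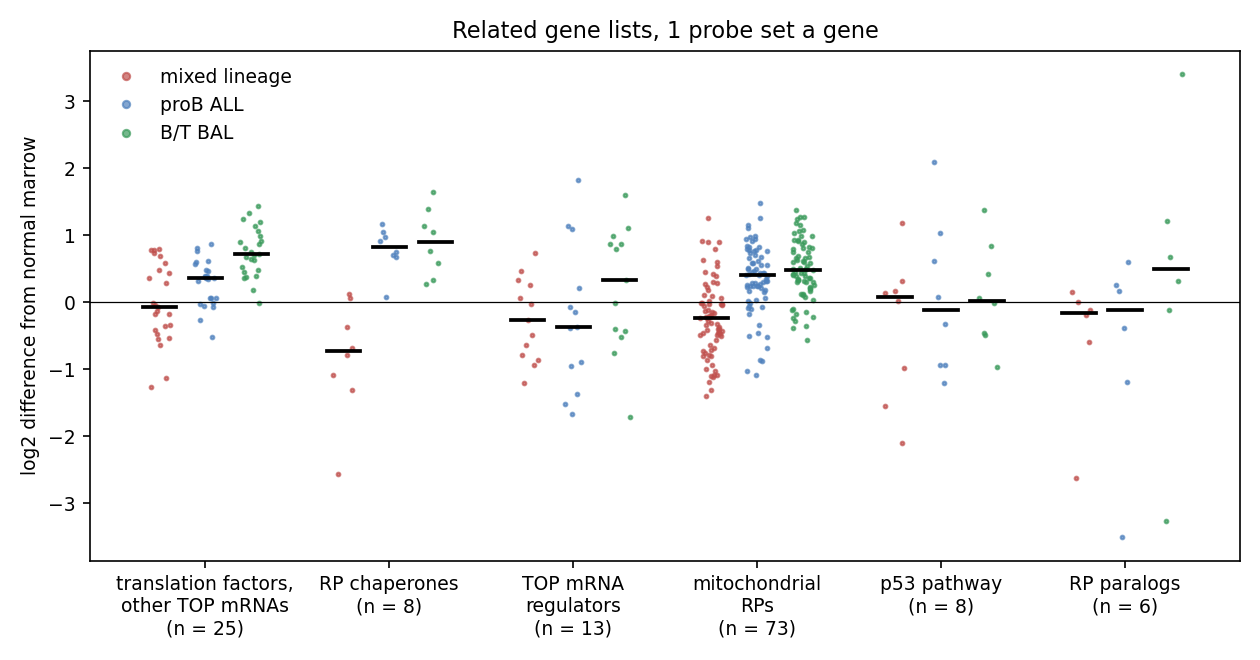
Log2 difference from normal marrow of each measured gene (points) in 6 related lists, for mixed lineage leukemia (red), proB ALL (blue) and B/T BAL (green), with black bars at medians. The chaperones and assembly factors have the widest gap between mixed lineage leukemia, at -0.73, and the other leukemias, at 0.83 and 0.91.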

How the data were processed

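Total RNA of 4 samples was measured on 4 arrays. The deposited intensity values, 1 signal per probe set, came from MAS5 according to the labels, that is per the submitters' processing notes. The MAS5 version is not given in the sources used here. All arrays shared a trimmed mean of 1000 after removal of 2% from each end. Of 45101 probe sets, 34945 had a single gene in the platform annotation. The 64 control probe sets, the 932 with several genes and the 9160 unnamed here were left out. All 95 members matched the RefSeq gene table with the same symbol.

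The pseudocount in log2(signal + 51.5) is the 25th percentile over the 4 arrays, and a difference understates the change of dim genes. Probe sets above 189, the 50th percentile, on at least 1 array were tested (25152). Where 1 side of a fold was below the floor, the floor replaced it and the fold is a lower bound ("at least"). Folds in the text are ratios of signals, and the 2-fold limit applies to the log2 differences. Signals of different probe sets were set against each other only to split or rank probe sets by brightness and for the members' share of the summed signal, since probe response also differs between probe sets.

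The 3 leukemias were compared with normal marrow, and both fusions with AF4-MLL alone, with limma 3.58.1 in R 4.3.3 (lmFit, eBayes with an intensity trend, Benjamini-Hochberg at 0.05). Residual spread came from the leukemias, with 2 and 1 degrees of freedom, on the assumption that the single normal array varies as they do. The p-values measure the spread between different leukemias, not replicates. Single arrays were compared by counts past 2-fold, without a test. The number of arrays limits the precision. The fit was tested on simulated data. Tables were made with Python 3.11.15, pandas 2.3.3 and numpy 2.4.6.

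Members, lists and motifs were chosen with earlier results of these data known. Genes named were drawn from the 8 highest and 8 lowest gene-specific probe sets by the mean of the 3 differences and the 4 at each end of both contrasts between leukemias. Further ones came from the ends of the _x_at and _s_at group, part of the 2 highest and 2 lowest of each list, and a fixed set of well-known members. Of that set, Rplp1, Rpl5, Rpl10, Rpl24, Rpl26 and Rps27a had no member probe set and were not analysed here. Alternatives changed the pseudocount, filter, floor, scaling, probe sets, fold, limma options and arrays left out.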

Additional observations from a re-analysis of the deposited data

Results flagged for a closer look

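For 3 gene-specific probe sets the mixed lineage leukemia lay on the opposite side of normal marrow from both leukemias with AF4-MLL alone, each by at least 1.5-fold. The share of all gene-specific probe sets that met this rule was not counted, so the 3 cannot be set against it. With 1 array a group these opposite directions were not tested as such. Limma's contrast of both fusions with AF4-MLL alone gave adjusted p-values of 0.179 for Rpl12, 0.192 for Rpl14 and 0.269 for Rps10.

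Rpl12 was at -3.22 for mixed lineage leukemia and at 1.15 and 0.95 for proB ALL and B/T BAL (log2 difference from normal marrow). In the same order Rpl14 was at -0.92, 1.19 and 1.25. The dimmer Rps10 probe set was at -1.05, 1.03 and 0.87, while the 3 bright Rps10 probe sets were above normal marrow in mixed lineage leukemia.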

How the results depend on the processing

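With 1 array a group, counts and medians describe 4 samples, and signals near the floor limit the dim probe sets. Of the alternative values, 158 stayed close to the main value and 32 moved. Of these, 1 changed sign, the median between B/T BAL and proB ALL over members under 20000. The main counts of members at least 2-fold higher and lower were 5 and 6 in mixed lineage leukemia, 11 and 0 in proB ALL and 29 and 0 in B/T BAL against normal marrow, and 13 and 1 in B/T BAL against proB ALL, and the cause of each move below was not tested. Quantile normalization gave medians of 0.029 in mixed lineage leukemia, 0.31 in B/T BAL and 0.0072 between B/T BAL and proB ALL, with 2, 10 and 2 members higher, and centring arrays on their median left 6 higher in B/T BAL than in proB ALL. Counting _x_at and _s_at probe sets gave 55 higher in B/T BAL and 35 higher than in proB ALL. With 1 probe set a gene, or the filter at the 75th percentile, 2 or 3 were higher in mixed lineage leukemia and 6 in proB ALL. The pseudocount at the 50th percentile left 3 lower in mixed lineage leukemia and 6 higher in proB ALL, and no filter gave 2 lower in B/T BAL than in proB ALL. At 1.5-fold, 17 were higher in mixed lineage leukemia, 2 lower in proB ALL, and 35 higher and 3 lower in B/T BAL than in proB ALL.

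The split at a mean signal of 20000 was added after seeing the data. Members under 20000 alone had medians of 1.02 for proB ALL, 0.24 for mixed lineage leukemia and -0.015 between B/T BAL and proB ALL, with 3 higher in mixed lineage leukemia, 8 in B/T BAL and 4 higher in B/T BAL than in proB ALL. Members of at least 20000 alone had 2 higher and 0 lower in mixed lineage leukemia, 1 higher in proB ALL and 0 lower in B/T BAL than in proB ALL. Limma called 0 members in leukemia against normal marrow under every alternative, each leukemia left out in turn included, while its lower calls over all probe sets, 18 in the main analysis, went from 0 to 170, the latter without B/T BAL. They numbered 116 without proB ALL and 0 without mixed lineage leukemia. In both fusions against AF4-MLL alone, setting low signals to the floor made limma call a dim Rpl27a probe set higher and Rpl12 lower. Their differences were 0.14 and -3.69 (log2). This setting makes proB ALL and B/T BAL equal where both were below the floor, as for Rpl27a, and so removes the residual spread there. Such calls cannot be read as a difference by fusion. Most calls over all probe sets under this setting were higher.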

Other observations

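A further 110 probe sets named a cytosolic ribosomal protein gene together with at least 1 other gene, and 27 ribosomal protein genes, among them Rpl5, Rplp1, Rpl24 and Rpl26, appeared on these alone. Of the 110, 106 passed the floor. Their median log2 difference from normal marrow was 1.07 in B/T BAL, 0.62 in mixed lineage leukemia and 0.19 in proB ALL, and 0.16, 0.07 and 0.21 after quantile normalization.

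Among gene-specific probe sets with a mean signal of at least 30000, the 29 ribosomal protein probe sets had medians of 1.08 for B/T BAL, 0.56 for mixed lineage leukemia and 0.11 for proB ALL. The 75 others that bright had medians of 0.47, 0.55 and -0.06.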
